A study of Mus musculus with 12 samples.

Results

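The 35 genes described here code for the lysosome, the proton pump that acidifies it (the V-ATPase) and part of the autophagy machinery that feeds it. They were taken by symbol from a fixed list, without a cutoff on any measured value. The list was drawn up with earlier results of these data known. Each symbol was matched to 1 mouse gene. They are 35 of the 55471 genes counted, and 34 of them were among the 17197 genes with enough counts to test, with Ctsl left out. RNA sequencing was run on 12 lines of Ba/F3, an established mouse pro-B cell line that grows only with interleukin-3 (IL-3) unless an oncogene replaces that signal. Controls were 4 lines with the empty vector MSCV, kept in murine IL-3 at 0.5 ng/ml. Another 4 expressed BCR-ABL1 and 4 expressed SFPQ-ABL1, both fusion proteins with the tyrosine kinase ABL1, and these 8 lines were kept free of IL-3. The lines of a group are biologically independent per the labels, all were untreated, and cells in exponential growth were frozen for total RNA. The study compared the signalling of both fusions. In each comparison with MSCV the fusion and the absence of IL-3 cannot be told apart, and only SFPQ-ABL1 against BCR-ABL1 is free of that difference.

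Lysosomes are acidic compartments in which hydrolases break down protein, lipid and sugar chains. The V-ATPase pumps the protons: its V1 sector burns ATP in the cytosol and drives the V0 sector, which carries protons across the membrane. Autophagy delivers cell contents to the lysosome in vesicles coated with proteins of the ATG8 family. TFEB and TFE3, transcription factors of the MiT/TFE family, bind a short DNA motif in the promoters of many of these genes, and mTORC1 on the lysosomal surface keeps them out of the nucleus when nutrients are plentiful.

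Libraries held 59355018 to 80616227 gene counts, and levels are given as CPM, read counts scaled to library size after TMM normalization, so that 1 CPM stood for 61.1 to 82.2 counts. Tested members other than Ctss had at least 353 counts in every library. The deposited exon counts, which hold only part of the reads, check the labels. Exon levels are CPM over the total gene counts of the library, without TMM. Abl1 exon 9 stood at 0.0454 to 0.0529 CPM in MSCV and at 4.36 CPM or more in every line with a fusion. The levels of this exon overlapped between the fusions. A pair of lines stood apart in the exon counts. In SFPQ-ABL1 line 2 the levels were 4.36 CPM for Abl1 exon 9 and 4.39 CPM for Sfpq exon 9, against 17.8 to 26.8 and 14.5 to 20.02 CPM in lines 1, 3 and 4. In BCR-ABL1 line 4 they were 20.8 and 3.60 CPM, against 9.23 to 11.8 and 1.53 to 1.98 CPM in lines 1 to 3. Abl1 exon 3, which separated the fusions, was lower in BCR-ABL1 line 4, at 2.21 CPM against 3.67 CPM or more in lines 1 to 3. This exon stood at 0.224 to 0.397 CPM in the SFPQ-ABL1 lines and at 0.185 to 0.454 CPM in MSCV. Why the lines of this pair stood apart was not tested. Calls that change without these lines are named below. Ba/F3 is labelled as pro-B, but of 12 pro-B cell markers 9 stayed under 1 CPM in every line, among them Pax5, Ebf1 and Il7r, and the last had no count in any library. Cd79a, Cd79b and Ptprc were present at 93.4 ± 4.05, 49.6 ± 5.50 and 351 ± 58.1 CPM (SD, n = 4) in the MSCV lines. Vpreb1, the only other marker tested, reached at most 0.402 CPM (30 counts). Of these 4 markers, 3 fell in BCR-ABL1 against MSCV and 1 was not called (75% called, beside 32.1% of all genes). In SFPQ-ABL1 against MSCV 1 of the 4 fell (25%, beside 1.79% of all genes).

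The promoters of 29 of the 35 members were found in RefSeq (build GRCm38.p6, 250 bases before to 50 after the start of transcription). Both strands were searched for the E box CACGTG, the core of the motif bound by MiT/TFE factors, and for its extended form TCACGTGA, which contains the E box. Each motif reads the same on both strands. Some genes have more than 1 window, one for each listed start, and a gene was counted where any of its windows held the motif. The E box was found in 10 of the 29 promoters (34.5%), against 2187 of 27025 genes (8.09%). The extended form was found in 6 (20.7%), those of Atp6v0d1, Atp6v1a, Ctsa, Ctsd, Gla and Mcoln1, against 304 genes (1.12%). The longer CLEAR consensus was found in 0 of 29 and in 100 genes (0.370%). Lamp1 held 4 E boxes at 15, 28, 45 and 61 bases before the start, none of them extended. The promoters of the 4 members that passed the test in some comparison and held the extended form are shown 5′ to 3′ on the gene's strand, with E boxes and extended E boxes in capitals. They lie at chr2:164833523-164833822 (plus strand) for Ctsa, chr7:142387778-142388077 (minus) for Ctsd, chr8:105566015-105566314 (minus) for Atp6v0d1 and chr8:3500269-3500568 (plus) for Mcoln1.
Ctsa: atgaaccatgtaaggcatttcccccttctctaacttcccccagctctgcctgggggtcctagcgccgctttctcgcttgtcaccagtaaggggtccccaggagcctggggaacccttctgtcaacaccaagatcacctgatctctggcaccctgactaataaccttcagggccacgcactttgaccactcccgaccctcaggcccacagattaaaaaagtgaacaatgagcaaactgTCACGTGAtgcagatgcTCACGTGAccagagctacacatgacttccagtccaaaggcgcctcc
Ctsd: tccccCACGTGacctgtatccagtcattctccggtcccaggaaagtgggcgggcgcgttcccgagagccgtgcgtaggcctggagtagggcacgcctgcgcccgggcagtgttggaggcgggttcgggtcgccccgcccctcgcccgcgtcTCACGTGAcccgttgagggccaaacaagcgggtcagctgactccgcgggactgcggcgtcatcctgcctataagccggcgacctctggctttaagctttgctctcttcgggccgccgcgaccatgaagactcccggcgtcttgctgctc
Atp6v0d1: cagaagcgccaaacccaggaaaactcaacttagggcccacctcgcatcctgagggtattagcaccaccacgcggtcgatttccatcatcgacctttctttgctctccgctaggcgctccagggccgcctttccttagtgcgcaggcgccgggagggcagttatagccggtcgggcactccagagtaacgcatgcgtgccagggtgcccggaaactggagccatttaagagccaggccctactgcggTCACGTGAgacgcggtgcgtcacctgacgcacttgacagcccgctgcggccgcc
Mcoln1: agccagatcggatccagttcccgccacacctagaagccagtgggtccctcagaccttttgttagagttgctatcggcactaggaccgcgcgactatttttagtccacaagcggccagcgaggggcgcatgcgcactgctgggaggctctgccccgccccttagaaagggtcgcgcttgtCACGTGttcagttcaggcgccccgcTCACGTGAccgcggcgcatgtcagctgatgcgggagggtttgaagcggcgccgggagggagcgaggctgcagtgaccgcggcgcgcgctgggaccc

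Distances are those of the first base of CACGTG from the start of transcription. In the Ctsa window shown, the CACGTG of the extended form begins 12 bases before and again 5 bases after the start. The window at the other listed start of Ctsa, chr2:164832622-164832921, holds 0 E boxes. In Ctsd and Mcoln1 the window holds the extended form and a second, shorter E box. In Atp6v0d1 the CACGTG of the extended form begins 3 bases before the start and runs across it. These matches describe the letters of the windows, and no binding was measured.

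In the BCR-ABL1 lines 11 of 20 tested members outside the pump were lower than in the vector lines, among them genes of proteases, glycosidases and lipid handling, while 5 of the 14 pump genes were called, in both directions. Of the 34 members tested, 5 rose and 14 fell in BCR-ABL1 against MSCV (edgeR quasi-likelihood test, Benjamini-Hochberg adjusted p under 0.05 over all genes tested). Of all genes tested 32.1% were called in this comparison, 15.8% higher and 16.3% lower, against 55.9% of the members. The median log2 fold change of the members was -0.24, beside -0.01 for all genes. For 18 members the 4 lines of both groups did not overlap, 3 above and 15 below MSCV, beside 31.6% of all genes. Among the rises is Ctss, which passed the filter on low counts only through the BCR-ABL1 lines and so had to differ, also in the comparison between the fusions. The 14 pump genes accounted for 2 rises and 3 falls (35.7% called, near the 32.1% of all genes), with a median of -0.21. The other 20 tested members accounted for 3 rises and 11 falls (70% called), with a median of -0.43. Of these 19 calls, 14 were made under every one of 20 alternative settings. Ctss kept its call in 19 of them, Atp6v1h in 16, Mcoln1 in 14, Atp6v1f in 12 and Tfe3 in 9.

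The SFPQ-ABL1 lines differed from the vector lines in fewer genes, and every member called was lower. In SFPQ-ABL1 against MSCV 7 members fell and 0 rose by edgeR, with 0 rises also at an unadjusted p under 0.05, by DESeq2 and by limma-voom. Of all genes tested 1.79% were called, 0.814% higher and 0.977% lower, against 20.6% of the members. The split of 140 higher and 168 lower genes became 210 and 114 without normalization factors. The 7 member genes were Npc2, Ctsb, Map1lc3b, Ctsd, Ctsa, Hexa and Gaa. No V-ATPase member was called by edgeR, DESeq2 or limma-voom, and 3 of 14 were lower at an unadjusted p under 0.05. The 20 tested members outside the pump all had a log2 fold change below 0, with a median of -0.36, beside -0.22 for the 34 tested and -0.0019 for all genes. Lines did not overlap for 13 members, all lower, beside 11.2% of all genes. The count of 7 fell to 1 without MSCV line 3, to 2 without MSCV line 2, SFPQ-ABL1 line 1 or SFPQ-ABL1 line 4, and to 3 without MSCV line 4 or SFPQ-ABL1 line 3. The 308 calls over all genes fell to 33 without MSCV line 3, 84 without MSCV line 2 or 4, 168 without BCR-ABL1 line 3, 108, 128 and 71 without SFPQ-ABL1 lines 1, 3 and 4, and rose to 467 without SFPQ-ABL1 line 2. Npc2 alone was called under all 20 alternatives, Ctsb under 17, Map1lc3b under 16, Ctsa and Ctsd under 15, Hexa under 13 and Gaa under 11.

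**Figure D1:**
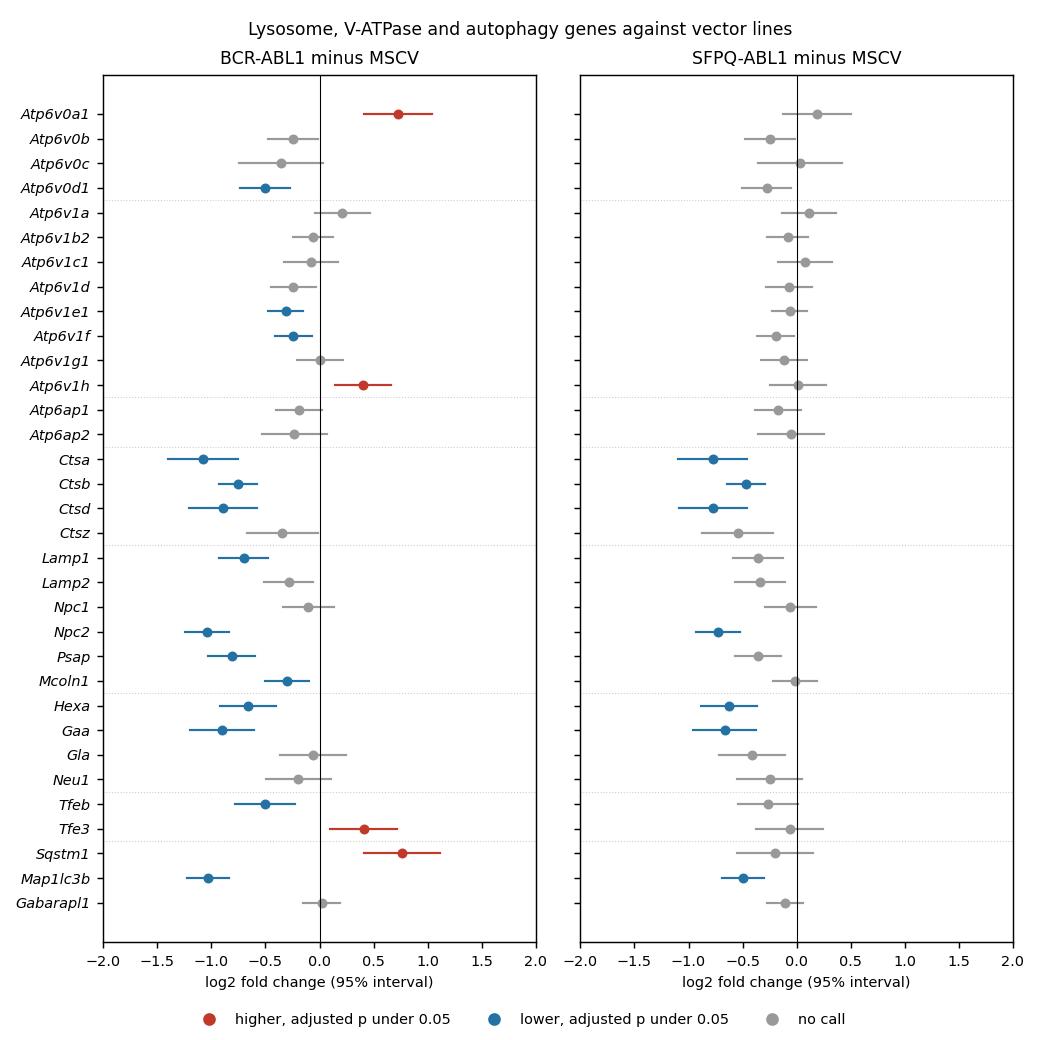
Log2 fold change of 33 members (dots) with its 95% interval (lines), BCR-ABL1 minus MSCV on the left and SFPQ-ABL1 minus MSCV on the right, ordered by role and coloured by call. Cathepsins, glycosidases and lipid-handling genes lie mostly left of 0 in both panels, while called pump genes lie on both sides of 0 in BCR-ABL1 and none is called in SFPQ-ABL1. Ctsl was not tested and Ctss, at 3.03 in BCR-ABL1, is off the scale.

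Cathepsins are proteases of the lysosome. Of 5 tested, Ctsa, Ctsb and Ctsd fell in BCR-ABL1 and in SFPQ-ABL1, both against the same MSCV lines. The shares of all genes called lower were 16.3% in BCR-ABL1 and 0.977% in SFPQ-ABL1. Ctss is given apart from the other cathepsins because its test depends on the filter on low counts. Ctsb (chromosome 14, 63122462 to 63145923 in mm10, plus strand) codes for the cysteine protease cathepsin B. Its level was 334, 319.9, 309 and 327 CPM in MSCV lines 1 to 4, 185, 214, 182 and 181 CPM with BCR-ABL1 and 213, 232, 247 and 242 CPM with SFPQ-ABL1 in the same order. Every BCR-ABL1 and SFPQ-ABL1 line lay below every MSCV line, and BCR-ABL1 line 2 overlapped the SFPQ-ABL1 lines. The fall was 1.69-fold in BCR-ABL1 (log2 fold change -0.76 ± 0.08 SE, adjusted p = 4.76e-05, edgeR) and 1.38-fold in SFPQ-ABL1 (-0.47 ± 0.08 SE, adjusted p = 0.0183), and the level was 1.22-fold higher in SFPQ-ABL1 than in BCR-ABL1 (0.29 ± 0.08 SE, adjusted p = 0.0191). Ctsb shares 774 bases with Fdft1 on the opposite strand, which had a mean of 2757 counts beside 18072 for Ctsb.

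Ctsa codes for protective protein, a carboxypeptidase that stabilises lysosomal sialidase and galactosidase. It had 174, 161, 144 and 136 CPM in MSCV lines 1 to 4, 72.3, 94.98, 62.9 and 61.3 CPM with BCR-ABL1 and 75.96, 107, 90.3 and 85.6 CPM with SFPQ-ABL1 in the same order. Ctsd, which codes for the aspartic protease cathepsin D, had 234, 235, 208 and 227 CPM in MSCV lines 1 to 4, 101, 125, 109 and 153 CPM with BCR-ABL1 and 99.04, 153, 138 and 139 CPM with SFPQ-ABL1 in the same order. For both genes the lines of each fusion lay below all vector lines, and the lines of the fusions overlapped each other. Ctsa fell 2.11-fold in BCR-ABL1 (log2 fold change -1.08 ± 0.15 SE, adjusted p = 0.000204, edgeR) and 1.71-fold in SFPQ-ABL1 (-0.78 ± 0.15 SE, adjusted p = 0.0260). Ctsd fell 1.86-fold (-0.89 ± 0.14 SE, adjusted p = 0.000598) and 1.71-fold (-0.77 ± 0.14 SE, adjusted p = 0.0244). Ctsz, coding for the carboxypeptidase cathepsin Z, was not called by edgeR: it had 239.9 ± 54.6, 189 ± 22.7 and 164 ± 22.4 CPM (SD, n = 4) in MSCV, BCR-ABL1 and SFPQ-ABL1, with intervals of -0.67 to -0.02 and -0.88 to -0.22 for the log2 fold changes against MSCV. DESeq2 called it lower in SFPQ-ABL1 (adjusted p = 0.0230).

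Ctss, coding for cathepsin S, a protease known from antigen-presenting cells, was close to the limit of detection. It had 0, 0.175, 0.0793 and 0.0307 CPM in MSCV lines 1 to 4, 0.216, 1.27, 0.440 and 0.449 CPM with BCR-ABL1 and 0, 0.104, 0.0122 and 0.114 CPM with SFPQ-ABL1 in the same order. No line of the BCR-ABL1 group overlapped the others, but its highest line, line 2, had only 93 counts. The 2 lines listed at 0, MSCV line 1 and SFPQ-ABL1 line 1, allow up to 0.0378 and 0.0402 CPM (3 counts, counting error only). The fitted fold change, which depends on the prior count at such levels, was 8.18-fold higher in BCR-ABL1 than in MSCV (log2 fold change 3.03 ± 0.86 SE, adjusted p = 0.0165, edgeR). Without BCR-ABL1 line 2 it was 5.04-fold with an adjusted p of 0.0656, and without MSCV line 2 it was 15.7-fold. In SFPQ-ABL1 it was 10.5-fold lower than in BCR-ABL1 (-3.39 ± 0.89 SE, adjusted p = 0.0145). Ctss could pass the filter on low counts only with the BCR-ABL1 lines, so its difference is not independent of that filter. Ctss shares 557 bases on the same strand with the pseudogene Hmgb1-ps5, which had a mean of 8.67 counts beside 17.0 for Ctss. Ctsl, coding for cathepsin L, had 0 to 8 counts per library and was not tested.

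Glycosidases remove sugars from glycolipids, glycoproteins and glycogen, and 2 of the 4 members of this kind fell in each fusion against MSCV. Of all genes, 16.3% were called lower in BCR-ABL1 and 0.977% in SFPQ-ABL1 against MSCV. Hexa, the alpha subunit of beta-hexosaminidase, had 265, 221, 222 and 244 CPM in MSCV lines 1 to 4, 135, 163, 144 and 161 CPM with BCR-ABL1 and 125, 187, 145 and 159.9 CPM with SFPQ-ABL1 in the same order. Gaa, the acid glucosidase that digests glycogen, had 320.3, 289, 268 and 271 CPM in MSCV lines 1 to 4, 139.6, 188, 158 and 129 CPM with BCR-ABL1 and 156, 218, 158 and 191 CPM with SFPQ-ABL1 in the same order. Both separated all MSCV lines from all lines with a fusion, and neither separated the fusions. Hexa fell 1.58-fold in BCR-ABL1 (-0.66 ± 0.12 SE, adjusted p = 0.00127, edgeR) and 1.55-fold in SFPQ-ABL1 (-0.63 ± 0.12 SE, adjusted p = 0.0266). Gaa fell 1.87-fold (-0.90 ± 0.14 SE, adjusted p = 0.000378) and 1.59-fold (-0.67 ± 0.14 SE, adjusted p = 0.0335). Gla, the alpha-galactosidase, and Neu1, the sialidase, were not called by edgeR in any comparison, with 24.5 ± 1.83, 23.5 ± 4.36 and 18.4 ± 2.70 CPM and 62.5 ± 8.97, 54.6 ± 3.99 and 52.5 ± 10.1 CPM in MSCV, BCR-ABL1 and SFPQ-ABL1.

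Of 6 genes of lipid handling and of the lysosomal membrane, 4 fell in BCR-ABL1 against MSCV (Npc2, Psap, Lamp1 and Mcoln1), and these were also higher in SFPQ-ABL1 than in BCR-ABL1, a comparison that shares the BCR-ABL1 lines. Of all genes, 16.3% were called lower in BCR-ABL1 against MSCV and 13.2% higher in SFPQ-ABL1 than in BCR-ABL1. In SFPQ-ABL1 against MSCV all 6 had a log2 fold change below 0, and edgeR called Npc2 lower, beside 0.977% of all genes. DESeq2 also called Lamp1 and Psap lower there (adjusted p = 0.0348 and 0.0245). Npc2 (chromosome 12, 84754562 to 84773152, minus strand) codes for a soluble protein that binds cholesterol in the lysosome and hands it to the membrane protein coded by Npc1. Its level was 419, 482, 439 and 459 CPM in MSCV lines 1 to 4, 221, 219.8, 223 and 209.8 CPM with BCR-ABL1 and 224, 275, 285 and 300.2 CPM with SFPQ-ABL1 in the same order. All BCR-ABL1 lines lay below every SFPQ-ABL1 line, and all SFPQ-ABL1 lines lay below every vector line. Npc2 fell 2.06-fold in BCR-ABL1 (log2 fold change -1.04 ± 0.09 SE, adjusted p = 1.82e-05, edgeR) and 1.66-fold in SFPQ-ABL1 (-0.73 ± 0.09 SE, adjusted p = 0.00723), and was 1.24-fold higher in SFPQ-ABL1 than in BCR-ABL1 (0.31 ± 0.09 SE, adjusted p = 0.0268). Npc1 itself was not called, with 55.2 ± 8.16, 51.4 ± 2.65 and 53.04 ± 5.08 CPM and an interval of -0.34 to 0.13 in BCR-ABL1 against MSCV. Npc1 shares 967 bases with Rmc1 on the opposite strand, at 3150 mean counts beside 3836.

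Psap (chromosome 10, 60277627 to 60302597, plus strand) codes for prosaposin, the precursor of the saposins that present sphingolipids to the hydrolases. It had 599, 555, 611 and 665 CPM in MSCV lines 1 to 4, 335, 352, 329 and 368 CPM with BCR-ABL1 and 432, 419.7, 494 and 553 CPM with SFPQ-ABL1 in the same order. Lamp1 (chromosome 8, 13159161 to 13175338, plus strand), a heavily glycosylated protein that lines the lysosomal membrane, had 684, 617, 631 and 540.3 CPM in MSCV lines 1 to 4, 347, 406, 401 and 367 CPM with BCR-ABL1 and 406, 543, 478 and 501 CPM with SFPQ-ABL1 in the same order. In both genes the BCR-ABL1 lines were lowest, all SFPQ-ABL1 lines lay above them, and for Lamp1 the SFPQ-ABL1 and MSCV lines overlapped. Psap fell 1.76-fold in BCR-ABL1 against MSCV (-0.81 ± 0.10 SE, adjusted p = 0.000103, edgeR) and was 1.37-fold higher in SFPQ-ABL1 than in BCR-ABL1 (0.46 ± 0.10 SE, adjusted p = 0.00524). Lamp1 fell 1.63-fold (-0.70 ± 0.11 SE, adjusted p = 0.000378) and was 1.27-fold higher (0.34 ± 0.11 SE, adjusted p = 0.0299). Against MSCV the SFPQ-ABL1 lines did not pass the edgeR test for either gene, with log2 fold changes of -0.36 (adjusted p = 0.0865) and -0.36 (adjusted p = 0.101).

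Lamp2, the paralogue needed for fusion of autophagosomes with lysosomes, missed the threshold in BCR-ABL1 against MSCV (-0.29 ± 0.11 SE, adjusted p = 0.0559, edgeR). Its lines ran from 251 to 299 CPM in MSCV to 193 to 246 in BCR-ABL1 and 189.7 to 241 in SFPQ-ABL1, so that both fusions lay below the vector lines. Mcoln1, the calcium channel TRPML1 of the lysosomal membrane, had 43.2, 44.7, 56.8 and 51.8 CPM in MSCV lines 1 to 4, 37.1, 40.2, 43.7 and 38.7 CPM with BCR-ABL1 and 46.9, 49.4, 50.4 and 47.9 CPM with SFPQ-ABL1 in the same order. It was lower in BCR-ABL1 than in MSCV (-0.30 ± 0.10 SE, adjusted p = 0.0288) with overlapping lines, and higher in SFPQ-ABL1 than in BCR-ABL1 (0.29 ± 0.10 SE, adjusted p = 0.0414) without overlap.

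**Figure D2:**
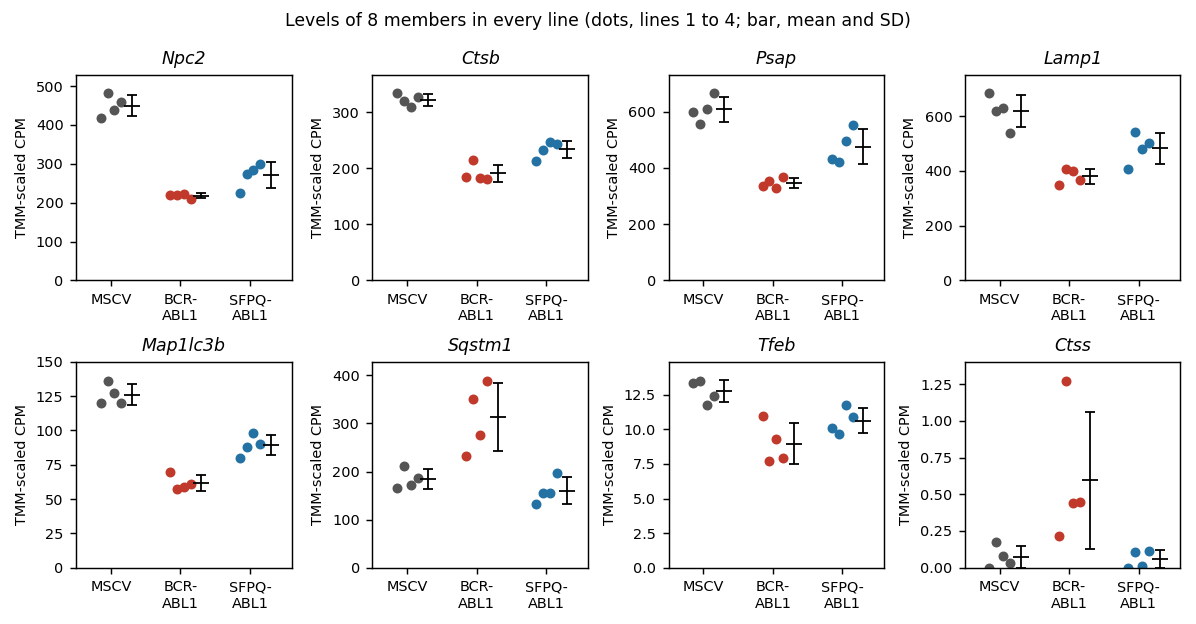
TMM-scaled CPM of 8 members in each line (dots, lines 1 to 4 from left to right) with the mean and SD of 4 lines (black). Npc2, Ctsb, Psap, Lamp1 and Map1lc3b have their lowest means in the BCR-ABL1 lines, Sqstm1 has its highest there, and Ctss stays under 1.3 CPM in every line.

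The levels of the 14 V-ATPase genes summed to 1483 to 1701 CPM in the MSCV lines, 1319 to 1585 in BCR-ABL1 and 1399.6 to 1541 in SFPQ-ABL1, so the groups overlapped. Together with the 21 other members they summed to 5588 to 5859, 3854 to 4508 and 4133 to 4709 CPM, so that all fusion lines lay below all vector lines. In RNA from a bulk culture, fewer cells expressing a gene and less RNA per cell cannot be told apart.

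In the V0 sector Atp6v0a1 (chromosome 11, 101009452 to 101063719, plus strand), one of the genes for the large a subunit, was the only pump gene whose BCR-ABL1 lines all lay above the MSCV lines. It had 37.8, 36.1, 44.2 and 52.6 CPM in MSCV lines 1 to 4, 56.2, 74.6, 64.4 and 86.5 CPM with BCR-ABL1 and 44.8, 44.6, 51.5 and 53.6 CPM with SFPQ-ABL1 in the same order. It rose 1.65-fold in BCR-ABL1 against MSCV (log2 fold change 0.72 ± 0.15 SE, adjusted p = 0.00239, edgeR) and was 1.45-fold lower in SFPQ-ABL1 than in BCR-ABL1 (-0.53 ± 0.15 SE, adjusted p = 0.0171). The second call was lost without BCR-ABL1 line 4. Atp6v0d1, the d subunit that links both sectors, had 131, 177, 129.9 and 131 CPM in MSCV lines 1 to 4, 93.5, 108, 104 and 95.1 CPM with BCR-ABL1 and 125, 108, 119.9 and 117 CPM with SFPQ-ABL1 in the same order. All BCR-ABL1 lines lay below all MSCV lines, and MSCV line 2 stood above the other vector lines. Atp6v0d1 fell 1.42-fold in BCR-ABL1 (-0.51 ± 0.11 SE, adjusted p = 0.00304).

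The a subunit is coded by several genes, of which Atp6v0a1, Atp6v0a2 and Tcirg1 were tested and Atp6v0a4 had too few counts. Tcirg1, coding for the a3 subunit known from osteoclasts and lysosomes, had 49.9, 60.3, 58.04 and 64.1 CPM in MSCV lines 1 to 4, 37.7, 35.3, 35.5 and 33.6 CPM with BCR-ABL1 and 62.1, 53.5, 60.4 and 56.2 CPM with SFPQ-ABL1 in the same order. It moved opposite to Atp6v0a1: it fell 1.64-fold in BCR-ABL1 (-0.71 ± 0.09 SE, adjusted p = 0.000116, edgeR), was 1.63-fold higher in SFPQ-ABL1 than in BCR-ABL1 (0.71 ± 0.09 SE, adjusted p = 0.000243), and did not overlap between BCR-ABL1 and either other group. Atp6v0a2 was not called, with 68.5 ± 2.04, 72.6 ± 2.73 and 75.3 ± 5.01 CPM in MSCV, BCR-ABL1 and SFPQ-ABL1. Levels per kilobase were taken over all annotated exons of a gene, so shares between genes depend on the annotation. By this measure Atp6v0a1 made up 19.4 to 24.9% of the summed level of these 3 genes in the MSCV lines, 30.8 to 41.7% in BCR-ABL1 and 21.1 to 26.7% in SFPQ-ABL1. Tcirg1 made up 39.9 to 46.1%, 23.1 to 29.4% and 39.2 to 41.7%. The BCR-ABL1 lines therefore did not overlap the others in the share of either gene, and these shares are given with no test since they were chosen after the levels were seen.

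**Figure D3:**
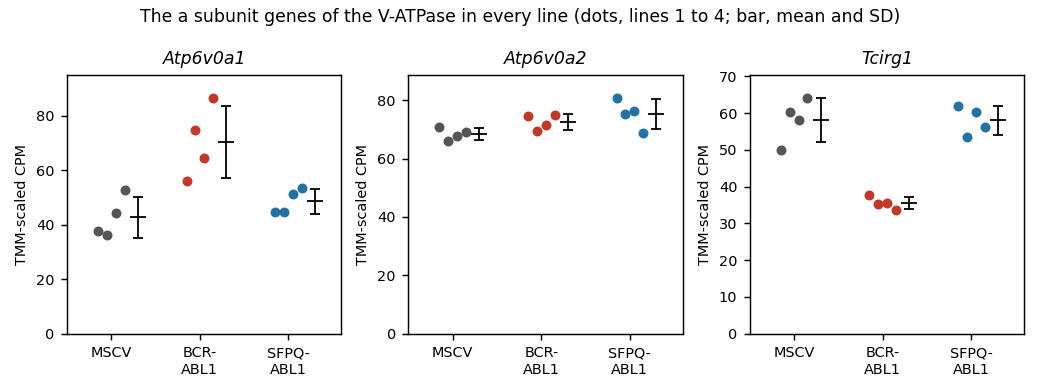
TMM-scaled CPM of the 3 a subunit genes in each line (dots) with the mean and SD of 4 lines (black). In BCR-ABL1 lines Atp6v0a1 lies at 56.2 to 86.5 and Tcirg1 at 33.6 to 37.7, and Atp6v0a2 stays at 66.1 to 80.7 in all 12 lines.

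Atp6v0b and Atp6v0c code for proteolipids of the ring that carries protons. Atp6v0b had 166 ± 22.4, 141 ± 14.1 and 140.4 ± 10.3 CPM and was not called. Atp6v0c is uncertain: it had 8.002 ± 1.12, 6.24 ± 1.06 and 8.15 ± 1.66 CPM, while its pseudogene Atp6v0c-ps2 held 8669 to 11975 counts per library (133.2 ± 8.99, 132.7 ± 18.04 and 137.6 ± 10.5 CPM). How the authors' counting split reads between both is not given in the sources used here, and the pseudogene was not called in any comparison (adjusted p = 0.976, 0.843 and 0.744).

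In the V1 sector 1 of 8 genes rose and 2 fell in BCR-ABL1 against MSCV (37.5% called, near the 32.1% of all genes). Atp6v1h, the H subunit that regulates ATP use, had 54.6, 79.95, 64.4 and 62.7 CPM in MSCV lines 1 to 4, 75.8, 88.1, 93.9 and 88.3 CPM with BCR-ABL1 and 72.2, 72.7, 58.5 and 60.2 CPM with SFPQ-ABL1 in the same order. Atp6v1e1, part of the stalk that holds the pump together, had 95.5, 113, 103 and 99.3 CPM in MSCV lines 1 to 4, 83.6, 79.8, 82.3 and 85.9 CPM with BCR-ABL1 and 106, 92.5, 98.5 and 96.8 CPM with SFPQ-ABL1 in the same order. The BCR-ABL1 lines overlapped MSCV for Atp6v1h but lay above all SFPQ-ABL1 lines, and for Atp6v1e1 they lay below all lines of the other groups. Atp6v1h rose in BCR-ABL1 (0.40 ± 0.12 SE, adjusted p = 0.0216, edgeR) and was lower in SFPQ-ABL1 than in BCR-ABL1 (-0.39 ± 0.12 SE, adjusted p = 0.0299). Atp6v1e1 fell (-0.31 ± 0.08 SE, adjusted p = 0.00702) and was higher in SFPQ-ABL1 (0.25 ± 0.08 SE, adjusted p = 0.0292). Atp6v1f, coding for the F subunit of the rotor, fell from 96.7 ± 9.87 to 81.7 ± 2.43 CPM (-0.24 ± 0.08 SE, adjusted p = 0.0314).

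The catalytic subunit gene Atp6v1a and its partner Atp6v1b2 were not called, at 152 ± 18.7 and 126 ± 8.12 CPM in MSCV, 176 ± 25.9 and 121 ± 5.76 in BCR-ABL1, and 165 ± 9.69 and 119 ± 11.7 in SFPQ-ABL1. Their intervals in BCR-ABL1 against MSCV ran from -0.04 to 0.46 and from -0.25 to 0.13 on the log2 scale. Atp6v1c1, Atp6v1d and Atp6v1g1, coding for further subunits of the stalks and the rotor, were also not called, with log2 fold changes of -0.08, -0.24 and 0.00 in BCR-ABL1 and 0.08, -0.07 and -0.12 in SFPQ-ABL1 against MSCV. The accessory subunit genes Atp6ap1 and Atp6ap2, the second of which also codes for the prorenin receptor, had 183 ± 17.3 and 211 ± 24.2 CPM in MSCV, 161 ± 20.6 and 179.8 ± 22.2 in BCR-ABL1, and 162 ± 4.38 and 204 ± 37.4 in SFPQ-ABL1. Neither was called. Without SFPQ-ABL1 line 2 and BCR-ABL1 line 4, Atp6ap2 was called lower in BCR-ABL1 than in MSCV (adjusted p = 0.0392) and higher in SFPQ-ABL1 than in BCR-ABL1 (adjusted p = 0.0259).

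The MiT/TFE genes moved apart in the BCR-ABL1 lines. Tfeb, at 13.3, 13.5, 11.8 and 12.4 CPM in MSCV lines 1 to 4, 10.9, 7.70, 9.32 and 7.92 CPM with BCR-ABL1 and 10.1, 9.69, 11.8 and 10.9 CPM with SFPQ-ABL1 in the same order, was lower in BCR-ABL1 than in MSCV without overlap of the lines (-0.51 ± 0.13 SE, adjusted p = 0.00881, edgeR). Tfe3 had 29.5, 40.9, 31.6 and 32.2 CPM in MSCV lines 1 to 4, 36.6, 56.2, 43.1 and 42.2 CPM with BCR-ABL1 and 27.7, 36.8, 30.4 and 33.4 CPM with SFPQ-ABL1 in the same order. It was called higher in BCR-ABL1 than in MSCV (0.41 ± 0.14 SE, adjusted p = 0.0437) and lower in SFPQ-ABL1 than in BCR-ABL1 (-0.47 ± 0.14 SE, adjusted p = 0.0274), and in both cases the lines overlapped. Neither factor was called in SFPQ-ABL1 against MSCV. Their RNA does not show where the proteins are, and both are controlled mainly by their place in the cell.

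In BCR-ABL1 against MSCV the autophagy receptor gene Sqstm1 rose and the vesicle coat gene Map1lc3b fell. Map1lc3b (chromosome 8, 121590361 to 121598760, plus strand) codes for LC3B, the ATG8 protein that marks autophagosomes. It had 120.0, 136, 128 and 120.2 CPM in MSCV lines 1 to 4, 69.7, 57.1, 58.5 and 61.1 CPM with BCR-ABL1 and 80.2, 88.1, 98.3 and 90.4 CPM with SFPQ-ABL1 in the same order. The groups formed 3 steps without overlap, BCR-ABL1 lowest and MSCV highest. The annotation places another gene, Gm20388, over 8400 bases of Map1lc3b on the same strand, and it had 0 counts in every library. Map1lc3b fell 2.05-fold in BCR-ABL1 (log2 fold change -1.03 ± 0.09 SE, adjusted p = 1.63e-05, edgeR) and 1.41-fold in SFPQ-ABL1 (-0.50 ± 0.09 SE, adjusted p = 0.0191), and was 1.45-fold higher in SFPQ-ABL1 than in BCR-ABL1 (0.54 ± 0.09 SE, adjusted p = 0.00114).

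Sqstm1 (chromosome 11, 50199366 to 50210827, minus strand) codes for p62, which ties ubiquitin-tagged cargo to LC3 and is itself degraded by autophagy. It had 166, 212, 172 and 187 CPM in MSCV lines 1 to 4, 233, 352, 277 and 389 CPM with BCR-ABL1 and 132, 156, 155 and 198 CPM with SFPQ-ABL1 in the same order. Every BCR-ABL1 line lay above every other line, and the SFPQ-ABL1 and MSCV lines overlapped, with a log2 fold change of -0.20 between them (adjusted p = 0.547, edgeR). Sqstm1 rose 1.70-fold in BCR-ABL1 against MSCV (0.77 ± 0.16 SE, adjusted p = 0.00324, edgeR) and was 1.95-fold lower in SFPQ-ABL1 than in BCR-ABL1 (-0.96 ± 0.16 SE, adjusted p = 0.00122). It shares 750 bases with Mrnip on the opposite strand, at 422 mean counts beside 15589. Gabarapl1, another ATG8 gene, was not called, with 121 ± 5.14, 122 ± 10.3 and 112 ± 4.83 CPM and an interval of -0.15 to 0.19 in BCR-ABL1 against MSCV.

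The direct comparison of the fusions, in which neither group had IL-3, called 7 members higher and 5 lower in SFPQ-ABL1 than in BCR-ABL1. Of all genes tested 26.0% were called, 13.2% higher and 12.8% lower, against 35.3% of the members. The split of 2268 higher and 2203 lower genes became 2841 and 1750 without normalization factors. The median log2 fold change was 0.05 for the members and 0.01 for all genes. The higher genes were Atp6v1e1, Ctsb, Lamp1, Npc2, Psap, Mcoln1 and Map1lc3b, and the lower genes were Atp6v0a1, Atp6v1h, Ctss, Tfe3 and Sqstm1. Lines did not overlap for 11 members, 7 above and 4 below, beside 27.9% of all genes. This comparison and that of BCR-ABL1 with MSCV share the BCR-ABL1 lines. Ctsa, Ctsd, Hexa and Gaa, which fell in both fusions, were not called between them, with intervals of -0.02 to 0.62, -0.19 to 0.43, -0.23 to 0.29 and -0.06 to 0.53 on the log2 scale.

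The count of 12 was 8 without SFPQ-ABL1 line 2 and BCR-ABL1 line 4, where Atp6v0a1, Atp6v1h, Ctsb, Lamp1, Mcoln1 and Npc2 lost their calls and Atp6ap2 and Atp6v0c gained one. It was 7 without BCR-ABL1 line 2 or 3, 6 without BCR-ABL1 line 4 or SFPQ-ABL1 line 4, and 5 without SFPQ-ABL1 line 3. Sqstm1, Map1lc3b and Psap were called under all 20 alternatives. In BCR-ABL1 against MSCV, leaving out both lines that stood apart gave 18 calls, with Atp6v1f, Mcoln1 and Tfe3 lost and Atp6ap2 and Atp6v1d gained. The 7 calls in SFPQ-ABL1 against MSCV were the same without these lines.

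Set in order of level per kilobase of all annotated exons, which depends on the annotation, the members spanned a wide range in the MSCV lines. Lamp1 (231 CPM per kilobase), Psap (221), Ctsz (167) and Hexa (119) stood at the top, and Tfe3 (3.62), Atp6v0c (2.36), Tfeb (2.25) and Ctss (0.0524) came last among those tested. The place of Atp6v0c is uncertain, because its pseudogene Atp6v0c-ps2 held 8669 to 11975 counts per library and the split of reads between both is not known. In BCR-ABL1 the first genes were Lamp1 (142), Ctsz (131) and Psap (126), whose neighbours in that order were not tested against each other. The median within-group SD of the members was 0.159 on the log2 scale beside 0.244 for all genes tested. It ran from 0.0810 in Atp6v1e1 to 1.15 in Ctss. These medians are not matched for level: tested members other than Ctss had at least 353 counts in every library, and the filter on all genes had a minimum count of 10.

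Other genes of the same pathways were described from further lists, chosen by function with earlier results of these data known. Their counts are to be read beside the shares of all genes called, 32.1% in BCR-ABL1 against MSCV, 1.79% in SFPQ-ABL1 against MSCV and 26.0% between the fusions. Of 32 tested lysosomal hydrolases and activators outside the members, 16 fell and 2 rose in BCR-ABL1 against MSCV, with a median log2 fold change of -0.71. Ppt1, a thioesterase that removes fatty acids from proteins, went from 116 ± 6.02 to 53.7 ± 5.22 CPM (-1.11 ± 0.08 SE, adjusted p = 1.17e-05, edgeR). The protease genes Dpp7 and Tpp1 went from 24.4 ± 2.08 to 10.6 ± 0.994 and from 200.4 ± 7.16 to 123 ± 7.48 CPM. The 2 that rose were both protease genes: Lgmn, coding for the asparagine endopeptidase legumain, from 7.30 ± 4.18 to 70.9 ± 25.8 CPM (3.28 ± 0.69 SE, adjusted p = 0.00299), and Scpep1, coding for a serine carboxypeptidase, from 13.9 ± 1.42 to 45.1 ± 16.03 CPM (1.70 ± 0.30 SE, adjusted p = 0.00105).

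In SFPQ-ABL1 against MSCV 7 of these hydrolases and activators fell and 1 rose, with a median of -0.38. Grn, coding for progranulin, went from 506 ± 42.2 to 275 ± 60.98 CPM (-0.88 ± 0.15 SE, adjusted p = 0.0168, edgeR). The 1 that rose was Ctsc, whose product activates the serine proteases of granules, from 264 ± 46.7 to 489 ± 119.8 CPM (0.89 ± 0.18 SE, adjusted p = 0.0350), with lines that overlapped. Between the fusions 12 were higher and 2 lower in SFPQ-ABL1 than in BCR-ABL1, with a median of 0.26. Lgmn was at 4.35 ± 4.08 CPM and Scpep1 at 10.1 ± 3.96 CPM in SFPQ-ABL1 (-4.03 ± 0.71 SE, adjusted p = 0.00157 and -2.16 ± 0.31 SE, adjusted p = 0.000435 against BCR-ABL1).

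Of 24 tested genes of the lysosomal membrane and of sorting to it, 11 fell and 1 rose in BCR-ABL1, with a median of -0.32, and 3 fell in SFPQ-ABL1, with a median of -0.17. Ctns, the cystine exporter, went from 21.8 ± 1.07 to 11.5 ± 0.773 CPM (-0.92 ± 0.09 SE, adjusted p = 2.18e-05, edgeR), and Gnptg, which takes part in tagging hydrolases for the lysosome, from 14.9 ± 1.11 to 8.73 ± 0.656 CPM. Cd63, a tetraspanin of lysosomes and exosomes, fell in both fusions, from 206 ± 12.1 CPM to 132 ± 7.59 in BCR-ABL1 (-0.64 ± 0.08 SE, adjusted p = 0.000106) and 128 ± 8.76 in SFPQ-ABL1 (-0.69 ± 0.08 SE, adjusted p = 0.00640). Between the fusions 11 of the 24 were higher and 1, Laptm5, lower in SFPQ-ABL1, with a median of 0.23.

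Of 12 further V-ATPase subunits and assembly factors tested, 3 fell and 1 rose in BCR-ABL1 against MSCV (33.3%, beside 32.1% of all genes), with a median of -0.19. Tcirg1, Wdr7 and Atp6v0e fell, and Dmxl1, coding for a protein that assembles the pump, rose from 54.03 ± 12.7 to 83.3 ± 10.5 CPM (0.63 ± 0.15 SE, adjusted p = 0.00754, edgeR). None was called in SFPQ-ABL1 against MSCV by edgeR, DESeq2 or limma-voom, with 1 higher and 1 lower at an unadjusted p under 0.05. Between the fusions 2 were higher and 1 lower, with a median of 0.16.

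Core autophagy genes went both ways in BCR-ABL1: of 35 tested, 12 fell and 5 rose, with a median of -0.06. The starter kinase gene Ulk1 went from 48.8 ± 5.40 to 27.9 ± 4.96 CPM (-0.81 ± 0.13 SE, adjusted p = 0.000452, edgeR), the lipid transfer gene Atg2a from 78.8 ± 5.89 to 43.5 ± 4.54 CPM (-0.86 ± 0.10 SE, adjusted p = 6.46e-05) and the ATG8 gene Gabarap from 252 ± 24.8 to 172 ± 5.32 CPM (-0.55 ± 0.10 SE, adjusted p = 0.000976). Atg3, whose product joins ATG8 proteins to lipid, was at 57.6 ± 1.03, 75.5 ± 3.87 and 53.03 ± 3.82 CPM in MSCV, BCR-ABL1 and SFPQ-ABL1 and was among those that rose. Between the fusions 9 were higher and 5 lower in SFPQ-ABL1, with a median of 0.03. In SFPQ-ABL1 against MSCV 0 of 35 were called by edgeR, DESeq2 or limma-voom, with 1 higher and 5 lower at an unadjusted p under 0.05, and the median was -0.04.

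Of 10 selective autophagy receptors other than Sqstm1, 4 fell and 1 rose in BCR-ABL1, with a median of -0.26. Calcoco1 went from 92.1 ± 17.7 to 37.2 ± 4.15 CPM (-1.31 ± 0.17 SE, adjusted p = 0.000122, edgeR), Optn from 94.8 ± 9.50 to 59.4 ± 12.4 CPM (-0.67 ± 0.19 SE, adjusted p = 0.0174) and Nbr1 from 184 ± 25.3 to 139 ± 6.16 CPM (-0.41 ± 0.10 SE, adjusted p = 0.00806). Between the fusions 4 were higher and 1 lower in SFPQ-ABL1, with a median of 0.22. In SFPQ-ABL1 against MSCV none was called by edgeR, DESeq2 or limma-voom, with 0 higher and 1 lower at an unadjusted p under 0.05.

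Genes of mTORC1 and nutrient sensing at the lysosome had 5 rises and 3 falls among 20 tested in BCR-ABL1 (40.0%, beside 32.1% of all genes), with a median of 0.11. Rheb, the GTPase that switches mTORC1 on, went from 55.8 ± 4.98 to 79.9 ± 3.29 CPM (0.52 ± 0.08 SE, adjusted p = 0.000594, edgeR) and Ppp3cb, a catalytic subunit of calcineurin, the phosphatase that frees TFEB, from 80.2 ± 3.42 to 114 ± 10.7 CPM (0.51 ± 0.09 SE, adjusted p = 0.000802). Slc36a1, an amino acid exporter of the lysosome, fell from 44.4 ± 6.47 to 27.8 ± 2.68 CPM (-0.68 ± 0.12 SE, adjusted p = 0.000849). Between the fusions 1 was higher and 5 lower in SFPQ-ABL1, with a median of -0.26. In SFPQ-ABL1 against MSCV none was called by edgeR, DESeq2 or limma-voom, with 1 higher and 4 lower at an unadjusted p under 0.05.

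**Figure D4:**
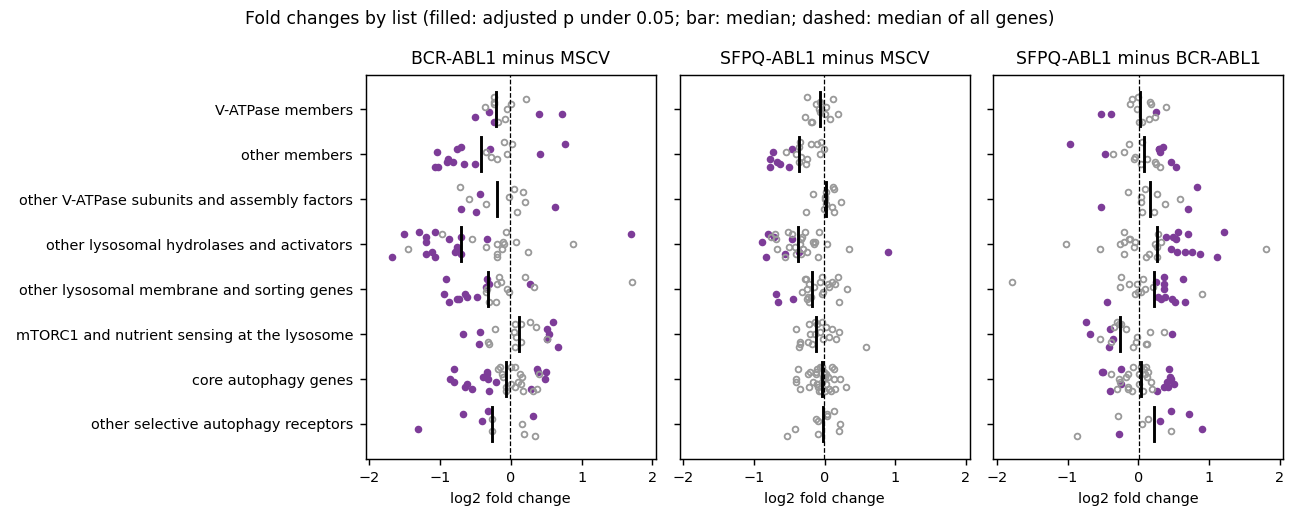
Log2 fold change of every tested gene (dots, filled where called) in the members and 6 further lists, with the median of each list (bar) and of all genes (dashed line), in the 3 comparisons. The hydrolase list lies lowest in BCR-ABL1 minus MSCV, at a median of -0.71, and above 0 in SFPQ-ABL1 minus BCR-ABL1, at 0.26; Ctss, Lgmn and Scpep1 have values beyond the axis limit of 2.

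Markers of other blood cells were present in these lines, and some were called between the groups. Their counts are to be read beside the shares of all genes called. These shares were 32.1% in BCR-ABL1 against MSCV, 1.79% in SFPQ-ABL1 against MSCV and 26.0% between the fusions. Of 11 macrophage and monocyte markers 7 were tested, and 3 rose (Fcgr1, Itgam and Mpeg1) and 1 fell (Lyz2) in BCR-ABL1 against MSCV (57.1% called). Between the fusions 0 were higher and 2 lower in SFPQ-ABL1 (28.6%, near the 26.0% of all genes). The summed level of these 11 markers ran from 57.5 to 118 CPM in MSCV, 101 to 278 in BCR-ABL1 and 46.6 to 172 in SFPQ-ABL1, so the groups overlapped. Fcgr1, the high-affinity IgG receptor, went from 4.20 ± 1.77 to 73.5 ± 35.05 CPM (4.13 ± 0.50 SE, adjusted p = 9.38e-05, edgeR), the same lines in which Lgmn, Scpep1 and Ctss were high. Csf1r, Cd14, Cx3cr1 and Gpnmb stayed under 1 CPM. Of 10 granulocyte markers 2 of 5 tested fell in BCR-ABL1 against MSCV (40% called, beside 32.1% of all genes). In SFPQ-ABL1 against MSCV 1 of the 5 rose and 0 fell (20%), with a median log2 fold change of 0.85. Between the fusions 4 were higher and 0 lower in SFPQ-ABL1 (80%), with a median of 2.17. The sum of the granulocyte markers ran from 424 to 1083 CPM in MSCV, 202 to 365 in BCR-ABL1 and 528 to 788 in SFPQ-ABL1. The most abundant was Ms4a3, at 574 ± 162, 223 ± 68.2 and 438 ± 16.4 CPM in MSCV, BCR-ABL1 and SFPQ-ABL1, and S100a8, Ctsg and Csf3r stayed under 1 CPM. Of 10 mast cell and basophil markers 1 of 5 tested rose and 2 fell in BCR-ABL1 against MSCV (60% called), and 1 fell in SFPQ-ABL1 against MSCV (20%). Between the fusions 1 was higher and 2 lower in SFPQ-ABL1 (60%). The sum of these 10 markers, mostly Gata2, ran from 1361 to 1666, 1343 to 1587 and 809 to 1371 CPM in the same order, so the groups overlapped. Tpsb2 and Prss34 had no count in any library. The part of these markers in the results of the members was not tested.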

How the data were processed

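RNA sequencing of 12 Ba/F3 lines, 4 per group, was analysed from the deposited gene counts and exon counts, which are raw read counts. Per the submitters' processing notes the authors used Subread and featureCounts on mm10; their versions, settings and use of strand were not given there. Gene identifiers were matched to GENCODE M21 (55230 of 55471). The 35 members and the further lists were chosen with earlier results of these data known.

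Genes were tested with edgeR 4.0.16 (glmQLFit and glmQLFTest, R 4.3.3) on all 12 libraries with the group as the only term, TMM scaling and filterByExpr (minimum count 10), which left 17197 genes. A gene was called at a two-sided Benjamini-Hochberg adjusted p under 0.05 over these genes. CPM used the TMM-scaled totals of the tested genes, with means ± SD over 4 lines, and per-kilobase levels used union exon length. DESeq2 1.42.0, limma-voom (limma 3.58.1) and other settings were tried as alternatives. Libraries held 59355018 to 80616227 counts, and floors for a count of 0 (3 counts) cover counting error only. Replicates of a group differed by more than counting noise (chi-square per degree of freedom 33.1 to 182 over 18 pairs). Members called by the test were named, those with the smallest adjusted p with every line, and of each further list up to 4 genes per comparison. A planned comparison of the alternative last exons of Lamp2 was not run, because its rule asked for at least 10 counts on each of them and one had 0 to 7 counts per library. Promoters came from RefSeq (GRCm38.p6). Figures were drawn with matplotlib 3.10.9. Some genes of the further lists are not reported here by name.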

Additional observations from a re-analysis of the deposited data

Results flagged for a closer look

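In 7 of 102 groups of 4 lines, 1 line lay far from the other 3 by Dixon's test; chance flags about 1 in 20 groups. Npc1, the lysosomal cholesterol transporter, stood at 45.4 CPM in SFPQ-ABL1 line 2 against 55.2 to 55.8 in the other lines of its group. In the same line Atp6ap2, an accessory subunit gene of the V-ATPase, stood at 148 CPM against 218 to 228, and Ctsz, coding for cathepsin Z, at 198 CPM against 151 to 157. This line also stood apart in the exon counts of the fusion. In MSCV line 2 Atp6v0d1 stood at 177 CPM against 129.9 to 131, and Atp6v1g1 at 123 CPM against 88.9 to 93.7. Atp6v0c stood at 9.66 CPM in MSCV line 3 against 7.18 to 7.60, and Ctsb at 214 CPM in BCR-ABL1 line 2 against 181 to 185.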

How the results depend on the processing

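No member changed direction with a call under any of the 20 alternatives. The 308 genes called in SFPQ-ABL1 against MSCV became 1131 with DESeq2, 110 with only the 8 libraries compared and 498 without SFPQ-ABL1 line 2 and BCR-ABL1 line 4; the cause was not tested. Leaving out 1 line at a time gave 33 to 467 genes and 1 to 8 members in SFPQ-ABL1 against MSCV, 4474 to 5645 genes and 16 to 20 members in BCR-ABL1 against MSCV, and 3161 to 5026 genes and 5 to 13 members in SFPQ-ABL1 against BCR-ABL1. Ctss was 6.46-fold lower in SFPQ-ABL1 than in BCR-ABL1 without BCR-ABL1 line 2 (adjusted p = 0.0520, edgeR) and 16.2-fold lower without both lines that stood apart, and Lgmn, 16.3-fold lower with all lines, was 25.9-fold lower without SFPQ-ABL1 line 2. Counts of 93 or fewer per library limit Ctss, and 0 to 8 limit Ctsl. The planned comparison of the Lamp2 last exons was not run, so no alternative to it is given.

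The replicate numbers are not said to pair the lines. Deviations of same-numbered lines correlated at -0.0063 to 0.385 (median 0.200, 12 pairs, 7 over 0.1). Those of differently numbered lines correlated at -0.347 to 0.228 (median -0.0791, 36 pairs, 6 over 0.1). With the replicate number as a block, edgeR called 22 members in BCR-ABL1 against MSCV, 10 members and 726 genes in SFPQ-ABL1 against MSCV, and 13 members between the fusions. The members it added were Atp6v1d, Ctsz and Lamp2 in BCR-ABL1 against MSCV (adjusted p = 0.0241, 0.0184 and 0.0225), Ctsz, Gla and Psap in SFPQ-ABL1 against MSCV (0.0160, 0.0320 and 0.0407), all lower, and Gla, lower in SFPQ-ABL1 than in BCR-ABL1 (0.0155).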
